A study of Drosophila melanogaster with 8 samples.

Results

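The genes described here are the chemosensory receptor genes of Drosophila melanogaster that belong to the gustatory (Gr), ionotropic (Ir) and odorant (Or) receptor families. They were chosen by name: every gene whose FlyBase symbol starts with Gr, Ir or Or directly followed by a digit, and Orco. Of 187 such genes in the symbol table, 175 had a value, among 11773 genes measured in all. They comprised 58 Gr, 59 Ir and 58 Or genes. The other 12, among them Orco and Gr5a, were not analysed here.

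RNA sequencing gave their levels in 8 libraries of brain neurons that make diuretic hormone 44, encoded by Dh44, the fly counterpart of corticotropin-releasing factor. The libraries carry the numbers of their titles. All libraries share the genotype DH44-GAL4;UAS-mCD8gfp, in which a Dh44 driver line puts a membrane-bound green fluorescent protein into the cells to be picked, so the driver line defines the cells. The flies were 5 days old and on normal food, and fluorescent cells were taken from dissected brains. There is 1 group, with no other cell type, diet or genotype, and nothing says whether the libraries came from separate animals. The number of cells behind a library is not settled, because the series text speaks of individual cells and the treatment label of pooled ones. The labels give no sex.

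Gustatory receptors are membrane proteins of taste neurons, best known for sugars, bitter compounds and carbon dioxide, and some of them also act in internal neurons. Odorant receptors work in olfactory neurons together with the co-receptor Orco. Ionotropic receptors derive from ionotropic glutamate receptors and sense acids, amines, amino acids, temperature and humidity, usually together with a co-receptor such as Ir25a, Ir8a, Ir76b or Ir93a. In the brain, Gr43a is known as an internal fructose sensor, which makes this gene class relevant to neurons studied as nutrient sensors.

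Values are FPKM, that is, fragments scaled for exon length and for the depth of mapped fragments, so levels of different genes are on a scale per length. A gene was said to reach 1 FPKM in a library at a value of 1 or more. Read depth is unknown, and an exact 0, called listed at 0 here, does not show absence, since even the general transcription factor gene Tbp had it in 5 libraries. Each library had a summed FPKM of 812029 to 935440, and 2518 (library 1) to 5256 (library 4) genes reached 1 FPKM. The label was checked against its marker: Dh44 itself lay between 26309 and 99818 FPKM. Over all genes, 41.2% reached 1 FPKM in at least 4 libraries. All 8 measured neuronal markers did, as did 12 of 13 photoreceptor, 5 of 6 fat body, 4 of 5 hemocyte, 3 of 5 glial and 3 of 6 muscle markers. The fat body share of summed FPKM was largest in libraries 8 and 1, at 7.33% and 6.99%, against 1.54% to 4.87% in the other libraries. In these picked cells, fewer cells of a type and less RNA per cell cannot be told apart.

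Most receptor genes were not seen. In all, 32 of the 175 receptor genes (18.3%) reached 1 FPKM in at least 1 library, whereas 66.2% of all 11773 genes did. At least 4 libraries were reached by 5 receptor genes (2.86%), against 41.2% of all genes. These 5 were Gr43a, Gr28b, Or43b, Ir93a and Ir76a. No receptor gene reached 1 FPKM in all 8 libraries, as 11% of all genes did. At the other end, 136 receptor genes (77.7%) were listed at 0 in every library, against 30.1% of all genes, and 7 were listed above 0 without reaching 1 FPKM. Of the receptor genes listed above 0 in at least 1 library, 12.8% reached 1 FPKM in at least 4, against 58.8% of all genes chosen in the same way. The design holds no second group, so these shares are descriptions without a test.

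**Figure D1:**
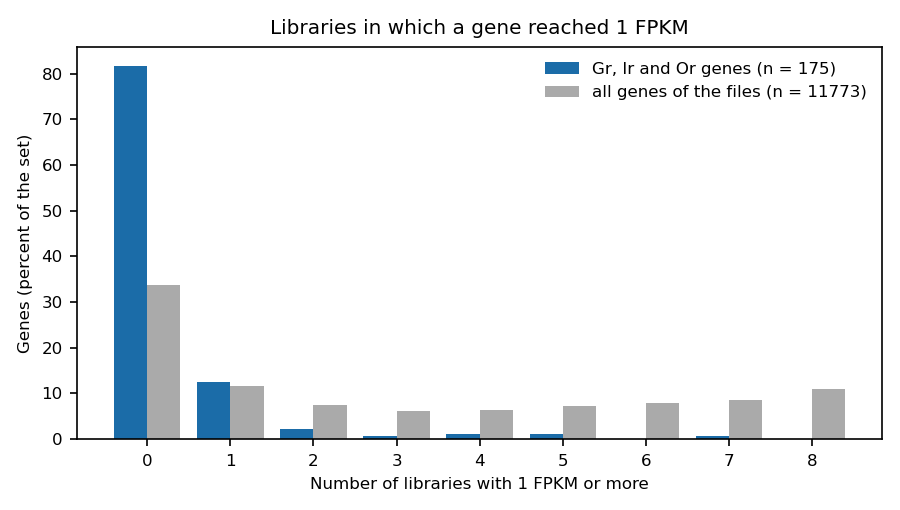
Share of genes (percent of each set) by the number of libraries in which they reached 1 FPKM, for the 175 Gr, Ir and Or genes on the left of each pair and all 11773 genes on the right. The receptor genes gather at 0 libraries (81.7%, against 33.8% of all genes), and no receptor gene stands at 8 libraries.

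The 3 families gave similar counts. Of 58 Gr genes, 11 reached 1 FPKM in at least 1 library and 2 in at least 4. Among 59 Ir genes the counts were 12 and 2, and among 58 Or genes 9 and 1. The 58 single values that reached 1 FPKM, of 1400 in all, were 23 of Gr, 21 of Ir and 14 of Or genes. Their median level was 28.3 FPKM for Gr, 4.57 FPKM for Ir and 20.4 FPKM for Or genes. Only 5 values reached 100 FPKM, and they belonged to Gr43a in 3 libraries, to Gr77a and to Or43b. Together the receptor genes held between 0.00866% (library 8) and 0.0581% (library 1) of a library's summed FPKM.

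The threshold itself cut through a few low values. Just above it lay Gr39a in library 5 (1.29 FPKM), Ir75b in library 4 (1.31 FPKM) and Ir93a in library 2 (1.32 FPKM). Just below it lay Or22c in library 6 (0.975 FPKM), Ir93a in library 6 (0.897 FPKM) and Ir56c in library 8 (0.874 FPKM).

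**Figure D2:**
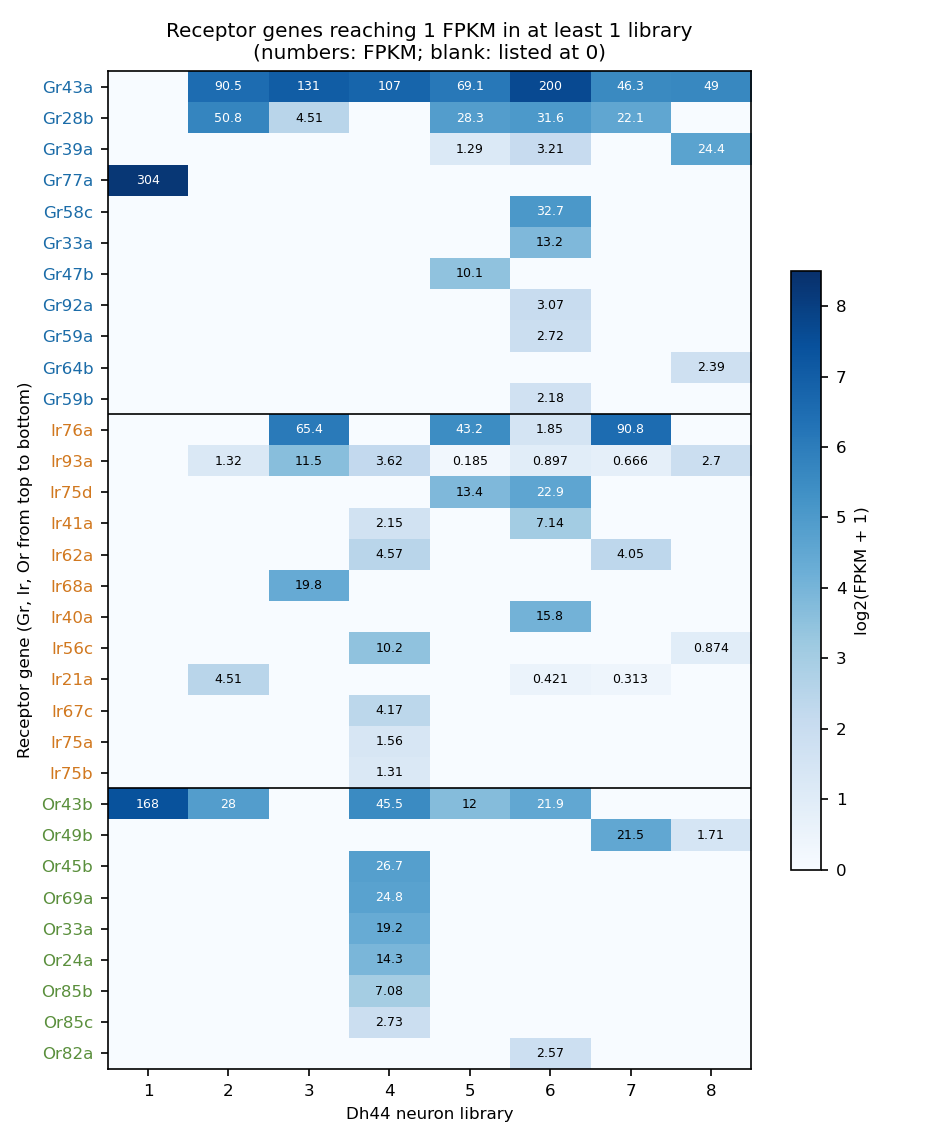
Level of the 32 receptor genes that reached 1 FPKM in at least 1 library (rows, Gr above Ir above Or) in each of the 8 Dh44 neuron libraries (columns), with shading by log2(FPKM + 1) and the FPKM printed in the cell. Gr43a fills 7 columns, most other rows hold a single filled cell, and those single cells gather in libraries 4 and 6.

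Gr43a, the fructose receptor, was the receptor gene seen in the most libraries. It lay at 90.5, 131, 107, 69.1, 200, 46.3 and 49.0 FPKM in libraries 2 to 8, in that order, and was listed at 0 in library 1. Its median was 79.8 FPKM, and its values above 0 spanned 46.3 to 200 FPKM. In the 7 libraries it ranked between 543 (library 6) and 1817 (library 7) among all genes by level, and it was the highest receptor gene in 6 of them. Library 1, where it was listed at 0, also had the fewest genes reaching 1 FPKM. Gr43a (FBgn0041243) has 8 exon blocks on the minus strand of chromosome arm 2R, from 7390869 to 7393161 in assembly BDGP6.54. Of its 1527 exonic bases, 155 overlap exons of Dhx15 on the opposite strand. The use of strand is not given in the sources used here, so reads from this stretch could belong to either gene, and Dhx15 was not analysed here. Glo1, which lies 384 bp from Gr43a on the same strand, was not analysed here either.

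The other sugar receptors that had a value were lower than Gr43a by their medians, and Gr5a was not analysed here. Gr64b, a member of the Gr64 sugar receptor cluster, was at 2.39 FPKM in library 8 and listed at 0 elsewhere. All of its 2858 exonic bases are shared with the Gr64c gene model on the same strand, so this value cannot be given to Gr64b alone, and Gr64c was listed at 0 in all 8 libraries. Gr61a, Gr64a, Gr64d, Gr64e and Gr64f were listed at 0 in all 8. The carbon dioxide receptors Gr21a and Gr63a were listed at 0 throughout as well.

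Gr28b, whose products are known from warmth and light avoidance and which is also expressed in non-gustatory neurons, was the second Gr gene. Its values were 50.8 FPKM in library 2, 4.51 in library 3, 28.3 in library 5, 31.6 in library 6 and 22.1 in library 7, with libraries 1, 4 and 8 listed at 0. The median was 13.3 FPKM, and it moved with single libraries: it was 4.51 FPKM without library 2, 5, 6 or 7 and 22.1 FPKM without library 1, 3, 4 or 8. The gene (FBgn0045495) lies on chromosome arm 2L from 7454826 to 7462247 on the minus strand, with 5 annotated transcripts over 4264 exonic bases and no exon shared with another gene. A single value per gene does not show which of these transcripts was present. Its neighbour Gr28a, 613 bp away on the same strand, was listed at 0 in all 8 libraries.

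Bitter receptors were rare. Gr39a, a gene of several alternative first exons with a role in bitter taste and courtship, lay at 24.4 FPKM in library 8, 3.21 in library 6 and 1.29 in library 5, and at 0 in the other libraries. It lies inside Mondo on the opposite strand without exon overlap, and Mondo was not analysed here. Gr33a, a broadly used bitter co-receptor, was at 13.2 FPKM in library 6 only. Gr32a, another of these common bitter receptors, did not pass 0.306 FPKM (library 2), and Gr66a, Gr89a and Gr93a were listed at 0 throughout. Gr33a and Gr39a were above 1 FPKM together in library 6, and no other pair of these bitter receptors was in any library. Library 8, the highest for Gr39a, also had the largest fat body and photoreceptor shares of summed FPKM (7.33% and 0.848%), whose part in that value was not tested. Most of the photoreceptor share was that of the markers Rh5 and ninaE, at 3995 and 2543 FPKM.

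The highest single receptor value was that of Gr77a, at 304 FPKM in library 1, with 0 listed in the other 7 libraries. Gr77a lies within CG13252 on the opposite strand without exon overlap, and CG13252 was listed at 0 in library 1. Gr58c reached 32.7 FPKM in library 6 and Gr47b 10.1 FPKM in library 5, each in that library only. Lower single values in library 6 were those of Gr92a (3.07 FPKM), Gr59a (2.72 FPKM) and Gr59b (2.18 FPKM). The gene san lies 28 bp from Gr47b on the same strand, and was at 53.4 FPKM in library 5 and at 110 FPKM in library 8, where Gr47b was listed at 0.

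**Figure D3:**
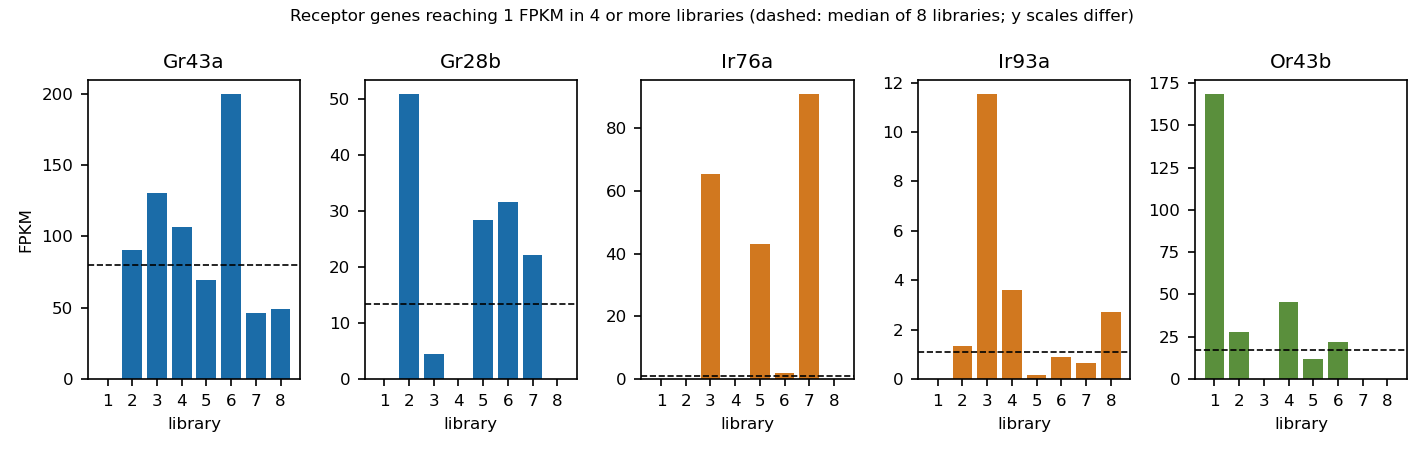
FPKM per Dh44 neuron library (bars) for the 5 receptor genes that reached 1 FPKM in at least 4 libraries, with the median of 8 libraries as a dashed line and a separate linear scale for each gene. Gr43a is listed at 0 in library 1 only, where Or43b has its highest bar (168 FPKM), and Ir76a has tall bars in libraries 3, 5 and 7.

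Of the ionotropic co-receptors, Ir93a was the one seen. It was listed above 0 in 7 libraries, at 1.32, 11.5, 3.62, 0.185, 0.897, 0.666 and 2.70 FPKM in libraries 2 to 8, and at 0 in library 1. It reached 1 FPKM in 4 of them, around a median of 1.11 FPKM, so most of its values stood close to the threshold. Ir25a, Ir8a and Ir76b were listed at 0 in all 8 libraries. Ir93a (FBgn0259215) lies on chromosome arm 3R from 20851709 to 20859945 on the minus strand and shares no exon with another gene. The kainate-type glutamate receptor gene KaiR1D lies 241 bp away on the same strand, and was at 66.2 and 69.6 FPKM in libraries 2 and 3. It was at 6.36, 16.1, 3.89 and 6.36 FPKM in libraries 4, 5, 6 and 8, at 0.779 FPKM in library 1 and at 0 in library 7. Both genes were highest in library 3, and library 2 had KaiR1D at a level close to that while Ir93a stood near the threshold. RpS30, a ribosomal protein gene, lies 281 bp from Ir93a on the opposite strand and was at 2305 to 3705 FPKM.

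Ir93a is known to work with Ir25a and with Ir21a in cool sensing, and with Ir40a or Ir68a in humidity sensing. Each of these 3 partners reached 1 FPKM in a single library. Ir21a was at 4.51 FPKM in library 2, and 79.4% of its exonic bases overlap the antisense RNA gene asRNA:CR43609. Ir68a was at 19.8 FPKM in library 3 and Ir40a at 15.8 FPKM in library 6. The levels of Ir93a in these libraries were 1.32, 11.5 and 0.897 FPKM. Ir93a and Ir21a thus reached 1 FPKM together in library 2, and Ir93a and Ir68a in library 3.

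Ir76a, an amine receptor of the antenna, was at 65.4 FPKM in library 3, 43.2 in library 5, 1.85 in library 6 and 90.8 in library 7, and at 0 in libraries 1, 2, 4 and 8. Its values fell into 3 high ones, 1 low one and 4 at 0, which gives a median of 0.924 FPKM that describes no library. This median was 0 without library 3, 5, 6 or 7, 1.85 FPKM without any single one of the others, and 22.5 FPKM without libraries 1 and 8 together. The gene (FBgn0260874) lies on chromosome arm 3L from 19799278 to 19803427 on the plus strand. Exons of CG14102 on the opposite strand overlap 297 of its 2109 exonic bases, and CG14102 was listed at 0 in all 8 libraries. SREBP lies 298 bp from Ir76a on the same strand and TORIP 310 bp from it on the opposite strand. Neither SREBP nor TORIP was analysed here, so their levels cannot be set beside those of Ir76a. Ir76b, the co-receptor with which Ir76a is known to act, was listed at 0 too.

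Further Ir genes appeared in 2 libraries or fewer. Ir75d, an antennal receptor, was at 13.4 FPKM in library 5 and 22.9 in library 6. However, 90.7% of its exonic bases are shared with COX6AL2 on the same strand and 21.8% overlap Prp6 on the other. COX6AL2 was listed above 0 only in libraries 5 and 6, at 5.71e-06 and 7.84e-06 FPKM. With most exonic bases shared, the values of Ir75d cannot be given to Ir75d alone. Prp6 was at 1.27 FPKM in library 5, 6.02 in library 6 and 27.7 in library 7, where Ir75d was listed at 0. Ir41a, an amine receptor of the antenna, was at 2.15 FPKM in library 4 and 7.14 in library 6. Ir62a, known from calcium taste, was at 4.57 FPKM in library 4 and 4.05 in library 7. It lies inside Iml1 on the same strand without exon overlap, and Iml1 was not analysed here. In library 4 alone, Ir56c was at 10.2 FPKM, Ir67c at 4.17, the acetic acid receptor Ir75a at 1.56 and its neighbour Ir75b at 1.31. Ir56d, which acts in fatty acid taste, did not pass 0.215 FPKM (library 7). Ir51b, Ir60b, Ir20a and Ir47a were listed at 0 in every library.

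Or43b was the odorant receptor seen most often. It was at 168 FPKM in library 1, 28.0 in library 2, 45.5 in library 4, 12.0 in library 5 and 21.9 in library 6, and was listed at 0 in libraries 3, 7 and 8. The median was 16.9 FPKM. Its highest value thus stood in the library with the fewest genes reaching 1 FPKM and with a fat body share of 6.99%, whose part in the value was not tested. Or43b (FBgn0026393) lies on chromosome arm 2R from 7920835 to 7922604 on the minus strand. Exons of Cul1 on the opposite strand overlap 575 of its 1412 exonic bases (40.7%), and Cul1 was not analysed here. The value of Or43b is uncertain to that extent. Kdm4A, which lies 170 bp away on the same strand, was listed at 0 in library 1 and was at 54.6 FPKM in library 2.

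Or49b was at 21.5 FPKM in library 7 and 1.71 in library 8. In library 4, 6 other Or genes appeared that were listed at 0 elsewhere. Or45b was at 26.7 FPKM, Or69a at 24.8, Or33a at 19.2, Or24a at 14.3, Or85b at 7.08 and Or85c at 2.73. Every exonic base of Or45b lies under the antisense RNA gene asRNA:CR45281. Or82a, a receptor for geranyl acetate, was at 2.57 FPKM in library 6 only. Without Orco the other Or proteins are known not to reach the cilia of olfactory neurons, and Orco was not analysed here.

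The single-library receptor genes were unevenly spread over the libraries. Of 32 receptor genes reached, 22 were reached in exactly 1 library (68.75%), against 17.5% of the 7794 genes of any kind reached. As shares of all genes measured, this is 12.6% of the receptor genes and 11.6% of all genes. Library 4 held 10 of these 22 and library 6 held 7, together 77.3%, while the same libraries held 46.8% of the 1366 genes of any kind reached in exactly 1 library. The 10 of library 4 were 6 Or and 4 Ir genes, with no Gr gene. The 7 of library 6 were 5 Gr genes, Ir40a and Or82a. Library 4 had the most genes reaching 1 FPKM of all libraries (5256). Library 6 had 4807, and libraries 2, 5 and 7 had 5093, 4904 and 5088. Of the 1366 genes of any kind reached in exactly 1 library, library 4 held 416 and library 6 held 223, against 47 to 156 in the other libraries. The part of gene detection in the receptor counts was not tested. The number of receptor genes at 1 FPKM was 15 in library 4, 14 in library 6, 7 in library 5, 5 each in libraries 2, 3, 7 and 8, and 2 in library 1. With libraries 4 and 6 left out, a setting chosen after these values were seen, 14 receptor genes reached 1 FPKM in place of 32.

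**Figure D4:**
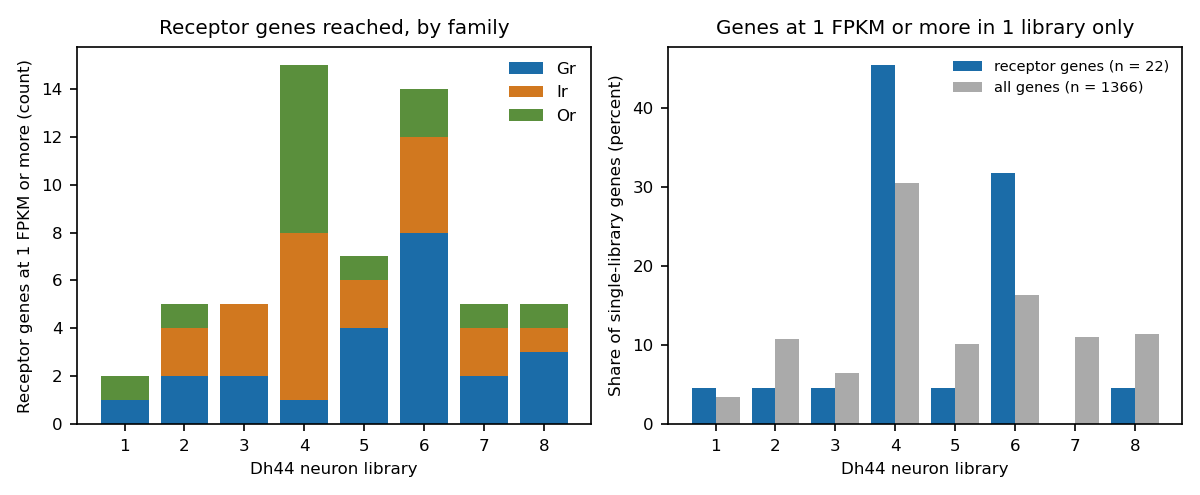
Left, number of receptor genes at 1 FPKM or more in each Dh44 neuron library, stacked by family. Right, share of the genes reached in 1 library only that each library holds (percent), for the 22 receptor genes (left bar) and all 1366 genes (right bar). Libraries 4 and 6 lead on the left with 15 and 14 genes, and hold 10 and 7 of the 22 genes on the right.

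Some of these genes are neighbours. Among the 175 receptor genes there were 40 pairs that lie on the same strand without overlap and no more than 1000 bp apart. In 3 pairs both genes were reached, in 8 pairs 1 was reached and in 29 pairs neither was. Some neighbourhoods enter more than once, since Gr64b and Gr64c share all their exonic bases, as do Gr10a and Or10a. Several of the 8 pairs rest on Gr64b, whose value cannot be given to it alone. The 3 pairs were Gr59a with Gr59b (477 bp apart), Ir75a with Ir75b (151 bp) and Or85b with Or85c (375 bp). Each pair was reached in 1 and the same library, library 6 for the Gr pair and library 4 for the others. Their 6 values lay between 1.31 and 7.08 FPKM. This count was made after the values were seen.

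The genes reached lay on the autosomes. None of the 24 receptor genes on the X chromosome reached 1 FPKM, and 2 of them were above 0, Ir7b (0.272 FPKM) and Or19b (0.510 FPKM), both in library 6. On the other arms, 23.3% (2L), 22.2% (2R), 28.6% (3L) and 12.2% (3R) of the receptor genes reached 1 FPKM. Over all genes the share on the X was 68.9%, against 63.7% to 67.8% on the 4 autosomal arms. This comparison too was made after the values were seen.

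The leading receptors overlapped in their libraries. The 4 libraries in which Ir76a reached 1 FPKM (3, 5, 6 and 7) were all among the 5 of Gr28b, and these were all among the 7 of Gr43a. Lying among those of Gr43a is given for any gene not reached in library 1, the only library without Gr43a. That library also had the fewest genes reaching 1 FPKM. Ir93a and Ir76a shared only library 3. Or43b shared 4 of its 5 libraries with Gr43a and was the only one of the 5 genes in library 1. With 5 genes and 8 libraries these are counts of values seen together, and a library may hold several cells.

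Genes of chemosensory signal transduction were seen in more libraries than the receptors. A list mainly of G proteins, phospholipases, cyclases, TRP and ppk channels and their regulators had 48 measured genes. Some of these are of other kinds, such as lush and dob. Of the 48, 31 (64.6%) reached 1 FPKM in at least 4 libraries and 13 in all 8, with dob in both counts. This compares with 41.2% of all genes. The list was led by the G protein gamma subunits Ggamma30A, with a median of 2095 FPKM (510 to 2700), and Ggamma1 at 696 FPKM (465 to 978). Between them stood the calcium sensor Cam at 1316 FPKM, whose exons overlap another gene. The arrestins Arr2 and Arr1 had medians of 399 and 214 FPKM, the G protein beta subunits Gbeta13F and Gbeta76C 321 and 32.2 FPKM, and the receptor kinase Gprk1 116 FPKM. Gycalpha99B, a soluble guanylate cyclase subunit, was at 52.0 FPKM and the phospholipase Plc21C at 33.5 FPKM. Most of these genes serve many receptors, and Arr1, Arr2 and Gbeta76C are best known from photoreceptors. The list shares Arr1, Arr2, norpA, trp, trpl and ninaC with the photoreceptor markers, and each of these reached 1 FPKM in at least 4 libraries. The count of 31 is therefore not one of chemosensory transduction alone. Arr2 was highest in library 8 at 891 FPKM, where the photoreceptor list held its largest share of summed FPKM, 0.848%, against 0.0862% to 0.241% in the other libraries. Most of that share was Rh5 at 3995 FPKM and ninaE at 2543 FPKM. Other photoreceptor markers were mixed, with trp highest in library 8 (31.2 FPKM) and norpA lowest there (7.99 FPKM). The part of photoreceptor RNA in these levels was not tested.

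The channels of this list, a subset made after the values were seen, were mixed. Of 16 measured, 5 reached 1 FPKM in at least 4 libraries (31.25%, against 41.2% of all genes), 4 in 1 to 3 libraries and 7 in none. OtopLa, the proton channel gene of acid taste, did so in all 8, around a median of 25.8 FPKM (1.99 to 57.8). The photoreceptor channel genes trpl and trp had medians of 10.5 and 1.08 FPKM. The channel genes ppk19 and pain each reached it in 4 libraries, with highest values of 40.8 and 5.21 FPKM, and exons of both overlap another gene. The pheromone taste channel genes ppk23 (33.3 FPKM) and ppk25 (15.0 FPKM) did so in library 4 alone, TrpA1 (8.58 FPKM) in library 7 alone, and wtrw in 2 libraries. The water taste channel gene ppk28 and lush, an odorant-binding protein gene of the antenna, were listed at 0 throughout. Of 10 measured markers of peripheral chemosensory organs, 3 reached 1 FPKM in at least 4 libraries: Obp99a (median 1948 FPKM), Obp56d (12.7 FPKM) and pdm3 (11.7 FPKM). The list held 0.0773% to 1.34% of summed FPKM. The neuronal transcription factor gene acj6 was at 1.48 FPKM in library 4, at 13.5 in library 6 and at 0 elsewhere. The other 6 were listed at 0 in all 8 libraries: lush, amos, Poxn and, from the receptor families themselves, Ir25a, Ir8a and Ir76b. The libraries with acj6 held most of the single-library receptor genes, but acj6 was singled out after the values were seen. It was 1 of 10 markers and stood near the threshold in library 4, where 6 others were listed at 0, as in library 6. The share of the list was 0.0773% in library 4 and 0.237% in library 6, against 0.0924% to 1.34% in the other libraries. Most of it was Obp99a, at 585 FPKM in library 4, 2033 in library 6 and 12509 in library 8. Libraries 8 and 4, the highest and lowest for Obp99a, also had the largest and smallest fat body shares (7.33% and 1.54%). Library 6 had the next smallest fat body share (1.87%) but not the next lowest Obp99a value. The part of fat body RNA in the Obp99a values was not tested. Obp56d and pdm3 were instead highest in library 4, at 83.6 and 47.9 FPKM, and were at 7.63 and 27.6 FPKM in library 6. The part of these genes' cells in the receptor values was not tested.

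**Figure D5:**
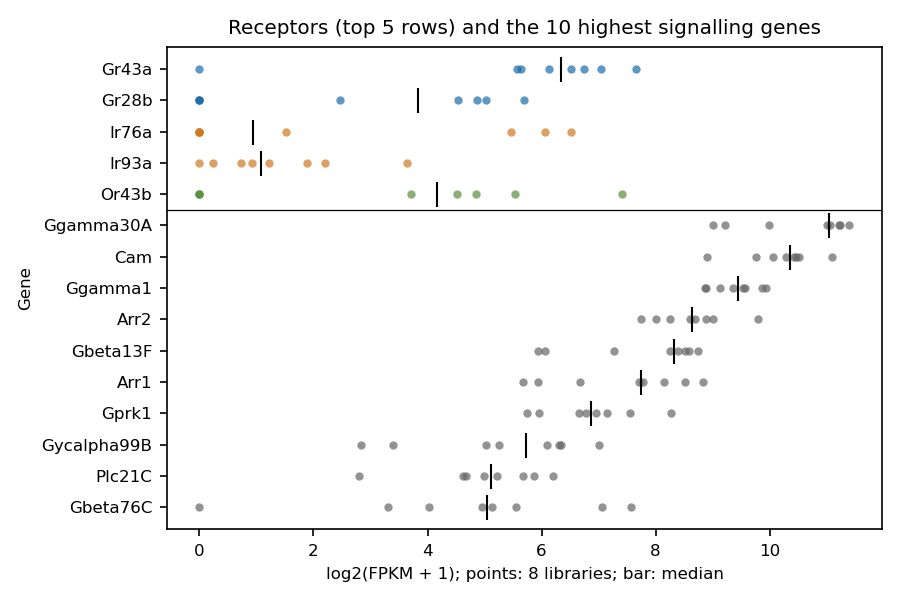
Level in log2(FPKM + 1) of the 5 leading receptor genes (upper rows) and of the 10 signalling genes with the highest medians (lower rows), with a point for each of the 8 libraries and a bar at the median. The medians of the receptor genes end at 79.8 FPKM (Gr43a), and 7 of the 10 signalling genes have a median above that.

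The ionotropic glutamate receptors, the family from which the Ir genes derive, were measured beside them. Of 10 measured genes, 3 reached 1 FPKM in at least 4 libraries (30%, against 41.2% of all genes). CG11155, a kainate-type receptor, did so in all 8, with a median of 126 FPKM (10.0 to 201), although its exons overlap another gene. The NMDA receptor subunit gene Nmdar2 and KaiR1D had medians of 6.76 and 6.36 FPKM. Nmdar1 had a median of 0.364 FPKM and a highest value of 25.6 FPKM in library 4.

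Overlap with other genes touched many of the values above. Of the 175 receptor genes, 29 have exons that overlap those of another gene, as have 7 of the 32 that reached 1 FPKM. These 7 include Gr43a, Or43b and Ir76a. Without such genes, Gr28b and Ir93a are the 2 that reached 1 FPKM in at least 4 libraries. Ir93a and Ir76a stood at exactly 4 libraries, and with library 3 left out the number of genes at 4 or more libraries was 3.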

How the data were processed

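The authors deposited 1 FPKM value per gene and library. The labels' protocols describe SMART-type cDNA, sheared to about 250 bp and amplified by 12 PCR cycles; per the series text, cleaned reads were mapped to the fly genome. TopHat is named by the submitters' processing notes. Not given in the sources used here: its version, build, annotation, FPKM program and use of strand. Read depth is unknown: values reached down to 9.13e-317 FPKM, which no whole read can give, so neither reads nor counting intervals could be derived. Symbols were matched for 11646 of 11773 identifiers. Coordinates and exon overlaps come from Ensembl release 115 (BDGP6.54), which may differ from the authors' build; transposons were left out of overlaps.

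With 8 libraries in 1 group, no comparison of groups was possible. The only test rule applied was Dixon's 95% critical value, used to flag single libraries. Values are given per library, with medians over n = 8, and replicates are separate samples whose source animals are not given. Counts used 1 FPKM and 4 libraries. Alternatives were 0.1 and 5 FPKM, 2, 6 or 8 libraries, rescaled libraries (a sum of 1000000, with or without 85 ribosomal protein genes), genes without exon overlap, libraries left out, and log2 means with pseudocounts of 1 and 0.1. Genes named were those reaching 1 FPKM in any library, the co-receptors, sugar, bitter and carbon dioxide receptors, a few Ir genes with known roles, and the 10 highest signalling genes; other genes were named after their values were seen. The members and lists were chosen with earlier results of these data known. Scripts ran in Python 3.11.15 with pandas 2.3.3, and the counting was tested on simulated data.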

Additional observations from a re-analysis of the deposited data

Results flagged for a closer look

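For 47 items (the 32 receptor genes that reached 1 FPKM, the 10 highest signalling genes, 3 glutamate receptor genes, the number of receptor genes reached and their summed FPKM), the extreme libraries were set against the rest. In 28 of them 1 library stood apart by a gap above Dixon's 95% critical value for 8 samples. With normal values chance would give about 1 in 20, which is no yardstick here, since a gene at 0 in most libraries stands apart by construction.

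This was so for the 22 genes that reached 1 FPKM in exactly 1 library. In library 4 they were Or45b (26.7 FPKM), Or69a (24.8), Or33a (19.2), Or24a (14.3), Ir56c (10.2), Or85b (7.08), Ir67c (4.17), Or85c (2.73), Ir75a (1.56) and Ir75b (1.31). In library 6 they were Gr58c (32.7 FPKM), Ir40a (15.8), Gr33a (13.2), Gr92a (3.07), Gr59a (2.72), Or82a (2.57) and Gr59b (2.18). The others were Gr77a in library 1 (304 FPKM), Ir21a in library 2 (4.51), Ir68a in library 3 (19.8), Gr47b in library 5 (10.1) and Gr64b in library 8 (2.39).

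Among genes reached in more libraries, 1 library stood apart for 6. They were Or43b in library 1 (168 FPKM, next highest 45.5), Ir93a in library 3 (11.5 FPKM, next 3.62), Ir41a in library 6 (7.14 FPKM, next 2.15), Or49b in library 7 (21.5 FPKM, next 1.71), Gr39a in library 8 (24.4 FPKM, next 3.21) and the arrestin gene Arr2 in library 8 (891 FPKM). Fat body genes held 7.33% of summed FPKM in library 8 and 6.99% in library 1, the largest shares, and their part in these values was not tested.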

How the results depend on the processing

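The 5 receptor genes at 1 FPKM in at least 4 libraries became 3 at 5 FPKM, 2 without genes whose exons overlap another gene, 10 with at least 2 libraries, 1 with at least 6 and 0 with all 8; with 1 library left out they were 3 to 5, lowest without library 3. The 32 genes reached in any library became 21 at 5 FPKM, and 22 to 32 with 1 library left out, lowest without library 4. Without libraries 4 and 6, chosen after seeing the data, these counts were 2 and 14. Leaving out genes with overlapping exons also took the median per library to 3, from 5 genes, and their share of summed FPKM to 0.00558%, from 0.0239%; it contains no Gr43a. With 1 library left out these were 5 in every case and 0.0208% to 0.0270%. The signalling count of 31 stayed within 1.5 times under all its 15 alternatives (28 to 30 with 1 library left out). Medians of the 5 leading genes moved more: with 1 library left out they were 69.1 to 90.5 FPKM for Gr43a, 4.51 to 22.1 for Gr28b, 12.0 to 21.9 for Or43b, 0.897 to 1.32 for Ir93a and 0 to 1.85 for Ir76a. Without libraries 1 and 8 that of Gr28b was 25.2 and that of Ir76a 22.5 FPKM; without libraries 4 and 6 that of Ir76a was 21.6 and that of Or43b 6.0 FPKM. As log2 means with pseudocounts of 1 and 0.1, turned back to FPKM, Gr43a was at 49.6 and 37.5, Gr28b at 6.08 and 2.78, Or43b at 8.53 and 3.83 and Ir76a at 4.44 and 1.53 FPKM. At unknown depth, a value listed at 0 cannot be told from a low level. No paired analysis was possible because there is 1 group.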
